A study of Mus musculus with 12 samples.

Results

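Genes of cholesterol and fatty acid synthesis were followed across the hypothalamus of control and treated mice. The set lists 33 genes in 4 roles, namely 15 of sterol synthesis, 5 of sterol regulation, 5 of fatty acid synthesis and 8 of fatty acid elongation and desaturation. They were listed by name and role, with earlier results of these data known. Of these, 32 genes had a probe set with a single gene symbol and all 32 were tested, among 17186 genes in all. Acat2, a cytosolic acetyl-CoA acetyltransferase, was not analysed here.

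RNA from the hypothalamus of male C57Bl/6J mice aged 21 weeks was measured on 12 Affymetrix Mouse Gene 1.0 ST arrays. Control mice (CON) received neither treatment. CGP mice were exposed from conception until postnatal day 28 to CGP 39551, a drug that blocks the NMDA type of glutamate receptor (NMDAR) competitively, taken by their mothers in the drinking water at 5 mg/kg body weight. ASP mice received the sweetener aspartame in the drinking water, first through the mother and then throughout life, at 46 mg/kg body weight. ASP+CGP mice received both, and all groups were kept on standard chow. RNA from all mice of a group was combined into 1 pool, and each pool was hybridized to 3 arrays. The adjusted p-values below therefore measure the spread between arrays, not between mice. An effect of treatment and any further difference between pools cannot be told apart.

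The cholesterol pathway builds sterols from acetyl-CoA through mevalonate, farnesyl pyrophosphate, squalene and lanosterol. The fatty acid pathway carboxylates acetyl-CoA to malonyl-CoA and extends it on fatty acid synthase, after which elongases lengthen the chain and desaturases introduce double bonds. The transcription factors SREBP-1 and SREBP-2, encoded by Srebf1 and Srebf2, activate many genes of both pathways when the SCAP protein escorts them out of the endoplasmic reticulum, and INSIG proteins retain them there when sterol is plentiful. The brain makes nearly all of its own cholesterol, and much of it goes into myelin.

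Promoter windows are given for 3 genes that were upregulated in the ASP pool, together with Hmgcs1, the cytosolic HMG-CoA synthase and a textbook SREBP target, whose level did not pass the test in any comparison. Each window runs from 250 bases before to 50 bases after the 5′ end of the gene in RefSeq (GRCm38.p6) and is read 5′ to 3′ on the strand of the gene. The windows are chr7:143822917-143823216 (plus strand) for Dhcr7, chr11:100527951-100528250 (minus strand) for Acly, chr9:86695865-86696164 (minus strand) for Me1 and chr13:119690101-119690400 (plus strand) for Hmgcs1. Capitals mark matches, on either strand, to a sterol regulatory element (TCACNCCAC), the CCAAT box (CCAAT) or the GC box (GGGCGG).
Dhcr7: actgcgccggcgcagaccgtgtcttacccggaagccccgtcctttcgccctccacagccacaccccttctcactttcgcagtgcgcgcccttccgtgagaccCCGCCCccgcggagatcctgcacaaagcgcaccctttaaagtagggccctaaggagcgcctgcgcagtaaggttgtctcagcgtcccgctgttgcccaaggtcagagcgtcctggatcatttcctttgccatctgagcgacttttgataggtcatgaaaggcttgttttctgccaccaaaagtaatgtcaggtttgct
Acly: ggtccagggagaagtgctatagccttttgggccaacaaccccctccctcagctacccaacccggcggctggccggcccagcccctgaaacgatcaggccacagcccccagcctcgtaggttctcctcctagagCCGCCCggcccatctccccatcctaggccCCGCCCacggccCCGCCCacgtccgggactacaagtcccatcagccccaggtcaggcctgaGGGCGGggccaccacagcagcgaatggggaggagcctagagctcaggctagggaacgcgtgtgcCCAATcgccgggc
Me1: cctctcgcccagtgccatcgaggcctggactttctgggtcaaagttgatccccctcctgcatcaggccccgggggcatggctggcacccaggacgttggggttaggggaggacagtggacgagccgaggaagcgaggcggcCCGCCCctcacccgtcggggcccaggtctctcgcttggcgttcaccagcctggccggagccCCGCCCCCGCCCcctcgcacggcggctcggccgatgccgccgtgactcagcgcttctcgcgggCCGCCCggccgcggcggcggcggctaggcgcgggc
Hmgcs1: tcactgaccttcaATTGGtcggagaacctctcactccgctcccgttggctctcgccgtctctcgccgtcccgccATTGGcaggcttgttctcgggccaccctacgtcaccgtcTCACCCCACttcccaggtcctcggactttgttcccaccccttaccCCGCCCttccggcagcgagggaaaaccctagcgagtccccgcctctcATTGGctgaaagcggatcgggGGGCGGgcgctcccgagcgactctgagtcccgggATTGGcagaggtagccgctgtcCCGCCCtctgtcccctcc

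A window at the 5′ end of the gene was found for 16 of the genes. For Acaca, Acacb, Elovl1, Elovl7, Fasn, Hsd17b7, Insig2, Lss, Mvk and Srebf1 the window lay at another annotated start and was not used, and none was found for Fdps, Fdft1, Sqle, Scd1, Scd2 and Fads1. The sterol regulatory element was matched in 1 of the 16, Hmgcs1, at base 114 of the window, and in 1.22% of all 19827 windows placed in the same way. The CCAAT box was matched in 11 of the 16 windows and in 38.2% of all windows. The GC box was matched in 13 of the 16 and in 29.5% of all windows. Of the upregulated genes shown above, Dhcr7 and Me1 held GC box matches and no CCAAT match, and Acly held both. A match of letters is a description and not a site of binding. The lack of a match in 1 window does not show that a gene has no such site.

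Correlation across genes was 0.995 to 0.999 within pools and 0.987 to 0.998 between pools, so these ranges overlap. Array 3 of CON and array 3 of ASP+CGP stood farthest from their pool means, at an SD over genes of 0.0903 and 0.0996, while the rest had 0.049 to 0.0701. Their deviations went the same way in 21 of the 32 synthesis genes, both lower in 14 and both higher in 7. Over all genes these deviations correlated at 0.541. Directions were not counted over all genes, so the 21 cannot be called particular to this set. Counts of passing synthesis genes that rest on these arrays are therefore also given without them. The counts of the neighbouring pathways and of the marker lists are not. Actb, a cytoskeletal reference gene, had a log2 difference of 0.04 ± 0.05 between ASP and CON. All 7 measured hypothalamic marker genes had a mean signal above 6 in every pool.

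**Figure D1:**
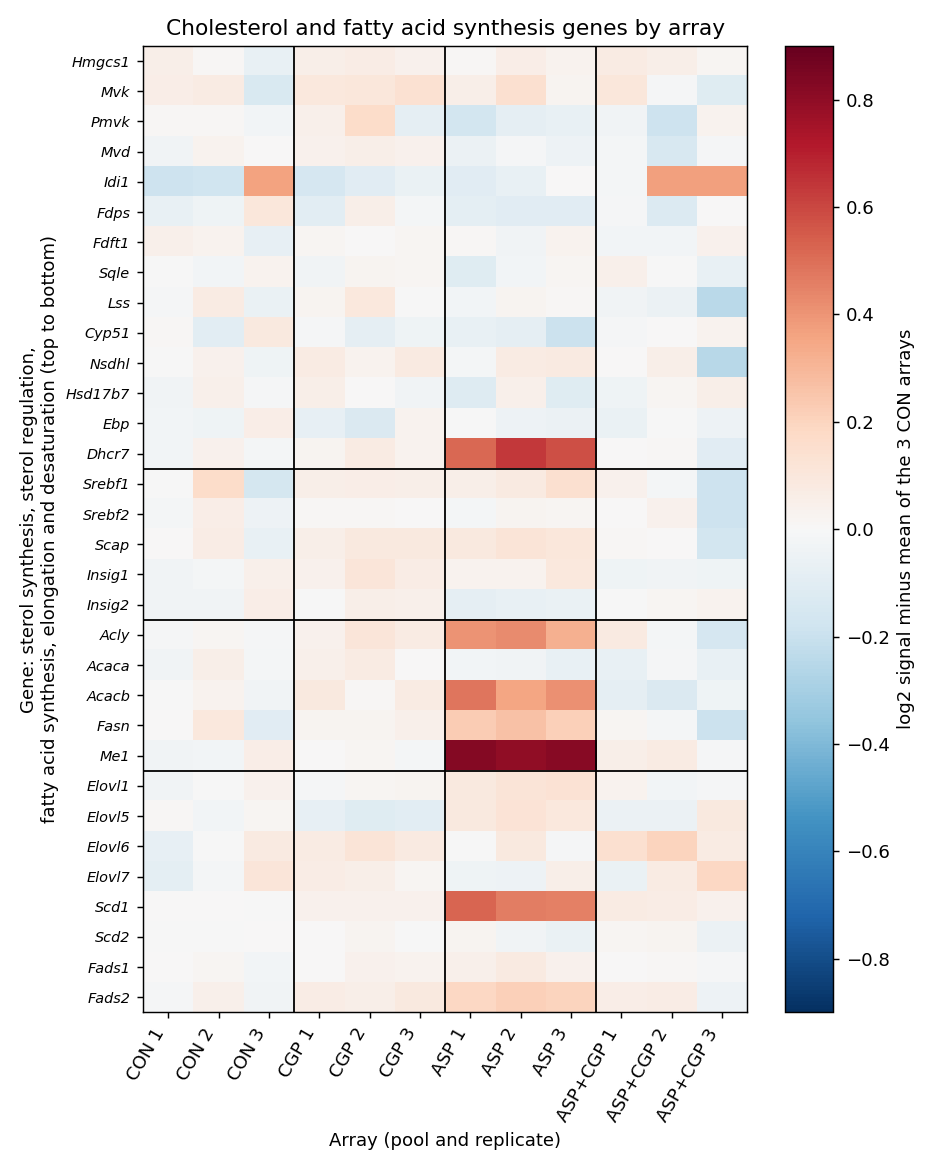
Each row is a gene and each column an array, and colour gives the log2 signal minus the mean of the 3 CON arrays. The 3 ASP columns are red for Dhcr7, Acly, Acacb, Fasn, Me1, Scd1 and Fads2, and Idi1 is high on array 3 of CON and on arrays 2 and 3 of ASP+CGP.

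The first comparison asked how chronic aspartame exposure related to the levels of the synthesis genes. In ASP vs CON, 7 of the 32 genes were upregulated and 0 were downregulated at an adjusted p under 0.05 (limma, Benjamini-Hochberg over all genes), which is 21.9% of them. Across all genes tested, 4.08% passed in either direction, 2.92% upregulated and 1.16% downregulated. The upregulated genes were Dhcr7 of sterol synthesis, Acly, Acacb, Fasn and Me1 of fatty acid synthesis, and Scd1 and Fads2 among the desaturases. By role, 1 of 14 genes of sterol synthesis, 0 of 5 of sterol regulation, 4 of 5 of fatty acid synthesis and 2 of 8 of elongation and desaturation passed. The median log2 fold change was 0.03 over the 32 genes and -0.01 over all genes. When a fold change over 1.4 was also required, Dhcr7 and Me1 remained as differentially expressed genes (DEGs), 2 of 32, against 1.05% of all genes in either direction and 1.02% upregulated.

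Dhcr7, on chromosome 7 (143823167 to 143848410), encodes the 7-dehydrocholesterol reductase that makes cholesterol in the last step of the pathway. The CON arrays gave log2 signals of 9.81, 9.87 and 9.81, followed by 9.86, 9.91 and 9.86 on CGP, 10.35, 10.47 and 10.41 on ASP, and 9.84, 9.84 and 9.73 on ASP+CGP. The ASP arrays lay above all 9 others, and the CON arrays overlapped both remaining pools. Dhcr7 was upregulated 1.49-fold in ASP vs CON (log2 fold change 0.58 ± 0.05 (SE), adjusted p = 1.7e-06 in limma).

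The other 13 measured genes of sterol synthesis did not pass. They cover the route from HMG-CoA to the sterol ring and its trimming: Hmgcs1, Mvk, Pmvk, Mvd, Idi1, Fdps, Fdft1, Sqle, Lss, Cyp51, Nsdhl, Hsd17b7 and Ebp. The lowest value in ASP vs CON was a log2 fold change of -0.11 ± 0.05 (adjusted p = 0.28 in limma) for Cyp51, the lanosterol demethylase. Pmvk, the phosphomevalonate kinase, had -0.10 ± 0.07 and Fdps, the farnesyl pyrophosphate synthase, -0.10 ± 0.05, and in both the ASP arrays lay below the CON arrays. Hmgcs1 had 0.04 ± 0.04 and Sqle, the squalene epoxidase, -0.04 ± 0.05. The median over the 14 genes of sterol synthesis, Dhcr7 included, was -0.03.

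Hmgcs1 had a log2 signal of 10.50, 10.46 and 10.38 on the CON arrays, 10.50, 10.51 and 10.48 on CGP, 10.46, 10.51 and 10.48 on ASP, and 10.52, 10.50 and 10.47 on ASP+CGP. All 4 pools overlapped. Across the 12 arrays Hmgcs1 spanned 0.14 on the log2 scale and Dhcr7 0.74.

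None of the regulators passed in any comparison. Their log2 fold changes in ASP vs CON were 0.09 ± 0.07 for Srebf1, 0.01 ± 0.05 for Srebf2, 0.10 ± 0.05 for Scap, 0.05 ± 0.04 for Insig1 and -0.07 ± 0.04 for Insig2. Srebf1 had a log2 signal of 9.79, 9.96 and 9.64 on CON, 9.85, 9.86 and 9.85 on CGP, 9.85, 9.88 and 9.94 on ASP, and 9.84, 9.78 and 9.61 on ASP+CGP. The CON arrays of Srebf1 spanned the values of every ASP array. Scap lay higher on the 3 ASP arrays (10.48 to 10.51) than on the 3 CON arrays (10.32 to 10.46), and Insig2 lower on ASP (10.22 to 10.24) than on CON (10.27 to 10.36). Neither difference passed the test, with an adjusted p of 0.35 for Scap and 0.42 for Insig2 in limma.

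Me1, on chromosome 9 (86581363 to 86695914), encodes the cytosolic malic enzyme, a source of NADPH for fatty acid synthesis, and had the highest log2 fold change of the set. Its log2 signal was 9.97, 9.98 and 10.06 on CON, between 9.99 and 10.02 on the 3 CGP arrays, 10.83, 10.80 and 10.83 on ASP, and 10.06, 10.08 and 9.99 on ASP+CGP. The ASP arrays stood above all others, which overlapped among themselves. Me1 was upregulated 1.76-fold (0.81 ± 0.04, adjusted p = 1.1e-08 in limma). A second Me1 probe set gave 0.86 ± 0.04.

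Acly, on chromosome 11 (100476352 to 100528000), encodes ATP citrate lyase, which supplies cytosolic acetyl-CoA to both pathways. Its log2 signal was 10.20, 10.23 and 10.20 on CON, 10.25, 10.32 and 10.28 on CGP, 10.62, 10.64 and 10.53 on ASP, and 10.29, 10.20 and 10.06 on ASP+CGP. All ASP arrays lay above the rest, while the ASP+CGP arrays spread around the CON arrays. Acly was upregulated 1.30-fold (0.38 ± 0.05, adjusted p = 0.00062 in limma).

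Acacb and Acaca encode the acetyl-CoA carboxylases, of which the Acacb form sits at the mitochondrion and is known for restraining fatty acid oxidation, and the Acaca form supplies malonyl-CoA for synthesis. Acacb, on chromosome 5 (114146321 to 114250761), had a log2 signal of 8.44, 8.48 and 8.41 on CON, 8.53, 8.45 and 8.52 on CGP, 8.92, 8.80 and 8.85 on ASP, and 8.36, 8.31 and 8.40 on ASP+CGP. The ASP arrays lay above all others and the ASP+CGP arrays below all CON arrays. Acacb was upregulated 1.33-fold in ASP vs CON (0.41 ± 0.05, adjusted p = 4.9e-05 in limma). Acaca had 9.70, 9.78 and 9.71 on CON and 9.71, 9.71 and 9.67 on ASP, a log2 fold change of -0.04 ± 0.04 with a 95% interval from -0.13 to 0.05. Its second probe set gave -0.08 ± 0.07.

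Fasn, on chromosome 11 (120805958 to 120825166), encodes fatty acid synthase, which assembles palmitate. Its log2 signal was 11.44, 11.53 and 11.33 on CON, 11.46, 11.46 and 11.48 on CGP, 11.66, 11.70 and 11.65 on ASP, and 11.45, 11.42 and 11.24 on ASP+CGP. The ASP arrays lay above the other 9, and the CON and ASP+CGP arrays overlapped. Fasn was upregulated 1.18-fold, close to the limit of the test (0.24 ± 0.06, adjusted p = 0.04 in limma). The adjusted p lay between 0.10 and 0.14 without CON array 1 or 3, or without any 1 of the ASP arrays.

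Scd1 and Scd2 encode stearoyl-CoA desaturases, which introduce the first double bond into saturated fatty acids, and lie close together on chromosome 19 (44394450 to 44407709 and 44293676 to 44306864). Scd1 had a log2 signal of 12.70 on each of the 3 CON arrays, 12.73, 12.74 and 12.73 on CGP, 13.22, 13.16 and 13.15 on ASP, and 12.77, 12.77 and 12.74 on ASP+CGP. The ASP arrays of Scd1 lay above all others, and the CGP and ASP+CGP arrays lay slightly above the CON arrays. It was upregulated 1.39-fold (0.48 ± 0.04, adjusted p = 1.1e-06 in limma), just under the 1.4-fold limit. Scd2, the predominant form of the brain, had 13.65, 13.65 and 13.66 on CON and 13.67, 13.62 and 13.59 on ASP. Its log2 fold change was -0.02 ± 0.04, with a 95% interval from -0.11 to 0.06. Whether the probes of these paralogs share targets was not examined.

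Fads2 and Fads1 encode the delta-6 and delta-5 desaturases of polyunsaturated fatty acids and also lie close together on chromosome 19 (10062765 to 10101503 and 10182877 to 10196874). Fads2 had a log2 signal of 12.42, 12.47 and 12.40 on CON, 12.49, 12.49 and 12.52 on CGP, 12.62, 12.65 and 12.63 on ASP, and 12.49, 12.49 and 12.39 on ASP+CGP. The ASP arrays lay above all others and the CGP arrays above the CON arrays. Fads2 was upregulated 1.15-fold in ASP vs CON (0.20 ± 0.04, adjusted p = 0.012 in limma), and its adjusted p was 0.054 without CON array 1 and 0.058 without ASP array 2. Fads1 had 0.06 ± 0.04 with an adjusted p of 0.47 in limma.

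None of the elongases of the set passed in any comparison. Elovl1, which extends saturated very long chains, had a log2 fold change of 0.11 ± 0.04 in ASP vs CON (adjusted p = 0.15 in limma) and Elovl5, which extends polyunsaturated chains, 0.10 ± 0.04 (adjusted p = 0.27). In both the 3 ASP arrays lay above the 3 CON arrays, at 10.28 to 10.32 against 10.16 to 10.23 for Elovl1 and at 11.49 to 11.53 against 11.38 to 11.42 for Elovl5. Elovl6, which extends palmitate, had 0.02 ± 0.05 and Elovl7 -0.01 ± 0.06.

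**Figure D2:**
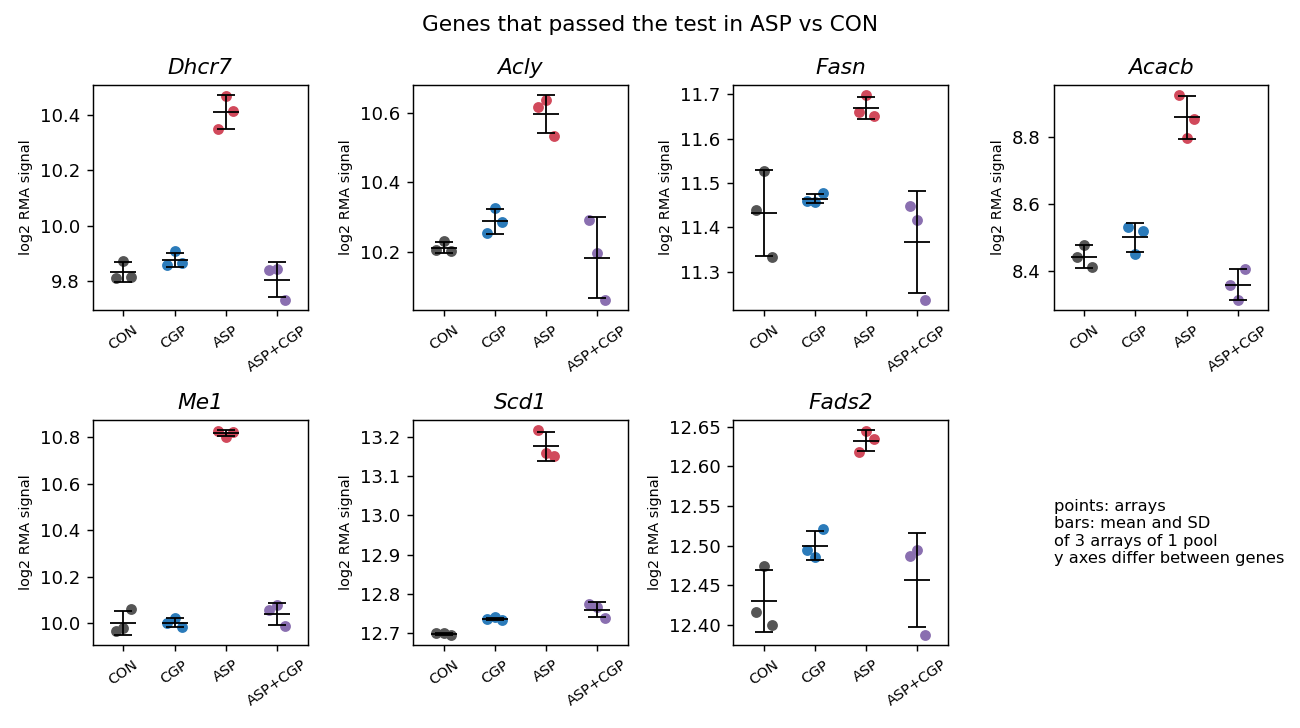
Points are the log2 signals of the 3 arrays of each pool for the 7 genes that passed in ASP vs CON, and bars are the mean and SD over arrays. The vertical axes differ between genes and do not start at 0. In every panel the 3 ASP arrays lie above the 9 others, by the widest gap in Me1 and by a narrow one in Fads2.

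The 25 genes that did not pass in ASP vs CON had log2 fold changes from -0.11 for Cyp51 to 0.11 for Elovl1. Their 95% intervals ran from -0.33 at the lowest, for Idi1, to 0.25 at the highest, for Srebf1, so that all 25 lay within 1.4-fold in either direction. In 11 of the 32 genes all ASP arrays were above all CON arrays, and in 3 all were below. Among all genes, 9.93% lay above and 13.9% below without overlap.

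The second comparison asked whether developmental NMDAR antagonism alone was followed by different levels in the adult. In CGP vs CON, 0 of the 32 genes passed in limma, and 0 had an unadjusted p under 0.05. Across all genes 0.628% passed, and 11.6% had an unadjusted p under 0.05. The log2 fold change ranged from -0.10 ± 0.13 for Idi1 to 0.11 ± 0.07 for Mvk, the mevalonate kinase. The 95% intervals of all 32 genes stayed within 1.4-fold. For the genes upregulated in ASP mice, the values in CGP vs CON were 0.04 ± 0.05 for Dhcr7, 0.08 ± 0.05 for Acly, 0.06 ± 0.05 for Acacb, 0.03 ± 0.06 for Fasn, 0.00 ± 0.04 for Me1, 0.04 ± 0.04 for Scd1 and 0.07 ± 0.04 for Fads2. The median was 0.04 over the 32 genes and 0.01 over all genes.

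The third comparison asked the same of mice given both treatments. In ASP+CGP vs CON, 0 of the 32 genes passed in limma and 1, Elovl6, had an unadjusted p under 0.05. Across all genes 1.75% passed and 15.4% had an unadjusted p under 0.05. The values were -0.03 ± 0.05 for Dhcr7, -0.03 ± 0.05 for Acly, -0.08 ± 0.05 for Acacb, -0.07 ± 0.06 for Fasn, 0.04 ± 0.04 for Me1, 0.06 ± 0.04 for Scd1 and 0.03 ± 0.04 for Fads2. Elovl6 had a log2 signal of 10.97, 11.03 and 11.12 on CON and 11.18, 11.24 and 11.11 on ASP+CGP (0.14 ± 0.05, adjusted p = 0.21 in limma). Array 3 of each pool reached into the range of the other pool. Without these 2 arrays 1 gene passed, Elovl6. Arrays of CON and ASP+CGP with the same replicate number deviated together, and with that number as a block in a limma fit of these 2 pools alone, chosen after seeing the data, 144 genes passed in place of 300 and again 0 of the 32. Idi1 and Elovl6 then had an unadjusted p under 0.05. That fit both added the block and left out the CGP and ASP arrays, so their parts in the lower count cannot be told apart. The median was -0.0075 over the 32 genes and -0.0043 over all genes.

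Idi1, the isopentenyl diphosphate isomerase, varied most within a pool. Its log2 signal was 9.10, 9.11 and 9.65 on CON, 9.14, 9.19 and 9.23 on CGP, 9.18, 9.22 and 9.29 on ASP, and 9.27, 9.66 and 9.66 on ASP+CGP. Array 3 of CON lay with arrays 2 and 3 of ASP+CGP, away from the other CON arrays, and the SD over the CON arrays was 0.313. Idi1 did not pass in ASP+CGP vs CON (0.24 ± 0.13, adjusted p = 0.39 in limma, 95% interval up to 0.52), and was the 1 gene that passed when array 3 of CON was left out. A second Idi1 probe set gave 0.13 ± 0.11.

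The fourth comparison set aspartame with and without NMDAR antagonism side by side. In ASP vs ASP+CGP, 7 of the 32 genes passed as higher in ASP and 0 as lower, against 6.92% of all genes in either direction, 4.25% higher and 2.67% lower. They were Dhcr7 (log2 fold change 0.61 ± 0.05), Acly (0.41 ± 0.05), Acacb (0.50 ± 0.05), Fasn (0.30 ± 0.06), Me1 (0.78 ± 0.04), Scd1 (0.42 ± 0.04) and Fads2 (0.18 ± 0.04). The limma adjusted p ran from 1.6e-08 for Me1 to 0.021 for Fads2, which lost this call in 5 of 18 alternatives (adjusted p up to 0.083). With a fold change over 1.4 also required, Dhcr7, Acacb and Me1 passed, against 1.27% of all genes in either direction and 1.24% higher. This comparison and the first share the ASP arrays, so the lists are not independent. Without array 3 of CON and of ASP+CGP, 8 genes passed here, the further gene being Elovl5, and the first comparison kept all 7 of its genes. The median was 0.06 over the 32 genes and -0.01 over all genes.

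The fifth comparison tested whether the difference between aspartame and no aspartame was itself different in mice exposed to CGP 39551, as the interaction of both treatments. In 7 of the 32 genes the interaction was below 0 with a limma adjusted p under 0.05, and in 0 it was above 0. Across all genes 4.01% passed in either direction, 2.78% below 0 and 1.23% above 0. The log2 interaction was -0.65 ± 0.07 for Dhcr7, -0.49 ± 0.08 for Acly, -0.56 ± 0.06 for Acacb, -0.33 ± 0.08 for Fasn, -0.78 ± 0.06 for Me1, -0.46 ± 0.05 for Scd1 and -0.25 ± 0.06 for Fads2. Dhcr7, Acly, Acacb and Me1 also exceeded 1.4-fold, against 1.5% of all genes in either direction and 1.35% below 0. The count was again 7 without array 3 of CON and of ASP+CGP. Fasn (adjusted p = 0.042) and Fads2 (adjusted p = 0.034) each dropped out of this limma test when CON array 1 or 3, any 1 CGP array or any 1 ASP array was left out, and 5 genes then passed.

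Among the regulators the interaction was -0.23 ± 0.07 for Scap (adjusted p = 0.12 in limma) and -0.16 ± 0.06 for Insig1 (adjusted p = 0.16). The paralogs Acaca and Scd2 had -0.05 ± 0.06 and 0.01 ± 0.06. Idi1 had 0.40 ± 0.18 with an adjusted p of 0.27.

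**Figure D3:**
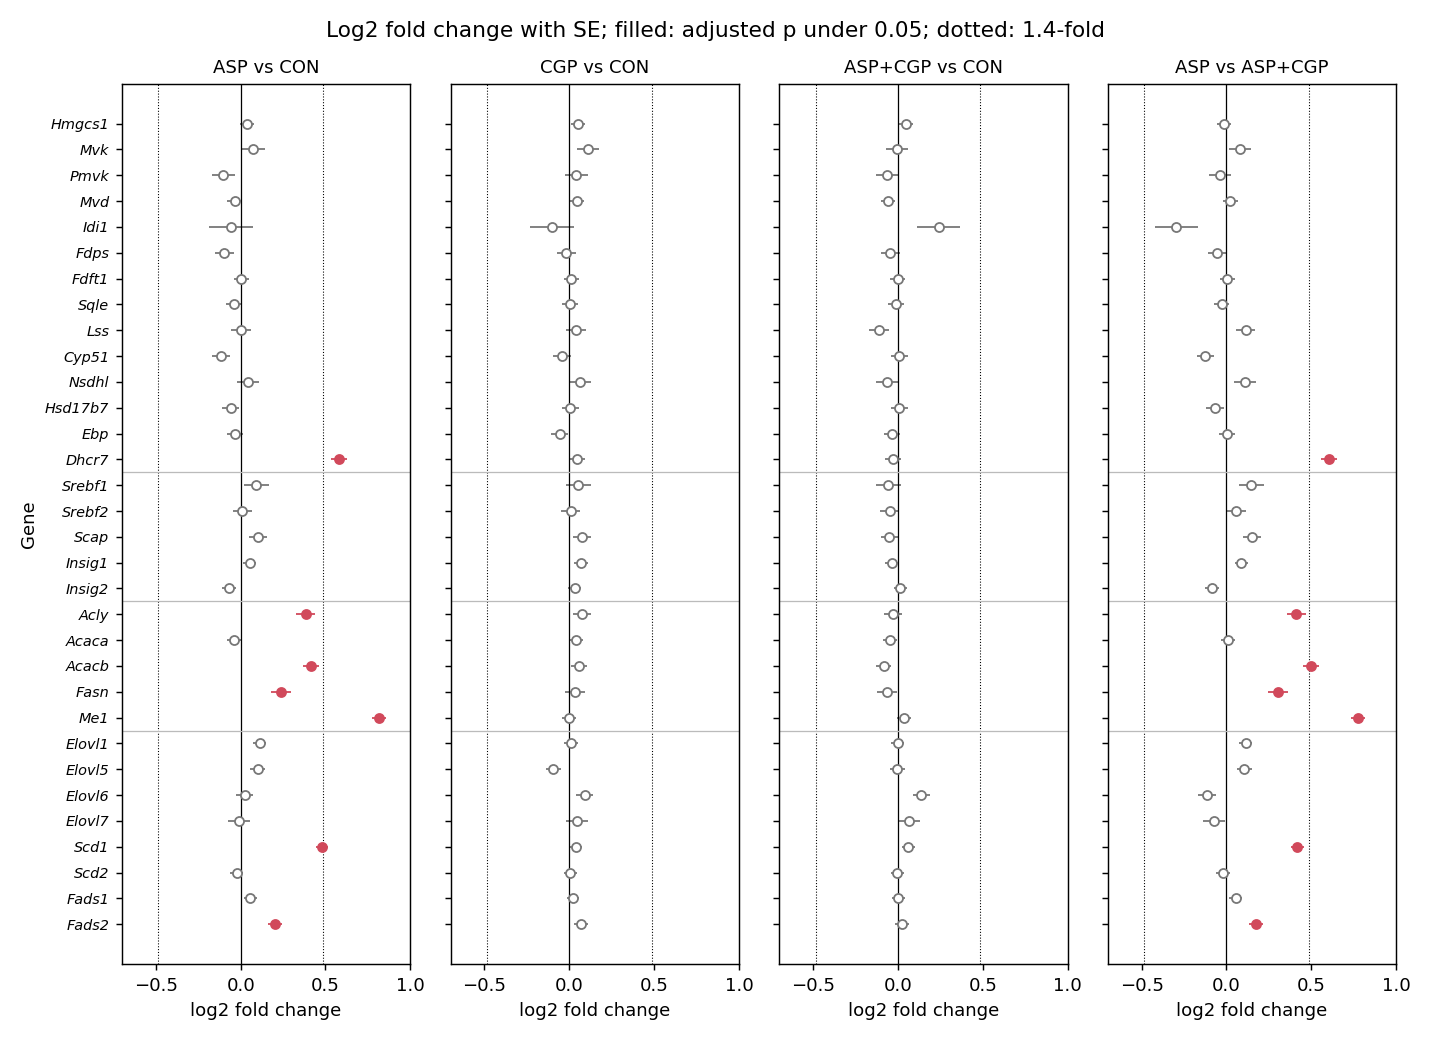
The log2 fold change of each gene is shown with its SE from limma in 4 comparisons, with filled points at an adjusted p under 0.05 and dotted lines at 1.4-fold. Filled points appear in ASP vs CON and in ASP vs ASP+CGP, 7 in each, and none in CGP vs CON or ASP+CGP vs CON.

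Neighbouring pathways were counted in the same way. Of all genes, 2.92% were upregulated and 1.16% downregulated in ASP vs CON. In ASP vs ASP+CGP, 4.25% of all genes passed as higher in ASP and 2.67% as lower. Of 6 measured genes of the sterol pathway outside the set (Msmo1, Sc5d, Tm7sf2, Lbr, Ggps1 and Acat1), 0 passed in ASP vs CON in limma and 0 had an unadjusted p under 0.05, with a median log2 fold change of -0.06. In ASP vs ASP+CGP, 1 of the 6 passed as lower in ASP, Ggps1, the geranylgeranyl diphosphate synthase (-0.16 ± 0.04, adjusted p = 0.038 in limma), and its ASP arrays lay below the ASP+CGP arrays. Of 11 measured genes of sterol uptake, transport and turnover, 2 were upregulated, with a median of 0.02. Scarb1, the high density lipoprotein receptor that takes up cholesterol esters, rose 4.78-fold, from 9.14, 9.22 and 9.15 on CON to 11.40, 11.45 and 11.43 on ASP (log2 fold change 2.26 ± 0.05, adjusted p = 4.5e-13 in limma). Nr1h3, the liver X receptor alpha, rose by 0.24 ± 0.06 on the log2 scale (adjusted p = 0.048). In CGP vs CON it had 0.23 ± 0.06 (adjusted p = 0.16 in limma), and the CGP arrays also lay above the CON arrays. Stard4, a sterol transfer protein, had -0.21 ± 0.06 in ASP vs CON (adjusted p = 0.05, not passing), and its ASP arrays lay below the CON arrays. Ggps1, Nr1h3 and Stard4 were named after their values were seen. In ASP vs ASP+CGP, 1 of the 11 passed, Scarb1 (2.39 ± 0.05).

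Of 21 measured genes of other fatty acid and glyceride synthesis, 4 were upregulated in ASP vs CON and 0 downregulated, with a median log2 fold change of 0.01. Agpat2, an acyltransferase of triglyceride and phospholipid synthesis, had a log2 signal of 8.01, 8.01 and 7.95 on CON and 9.31, 9.49 and 9.44 on ASP, a 2.68-fold rise (1.42 ± 0.06, adjusted p = 9.7e-10 in limma). Elovl3, an elongase known for its expression in brown fat and skin, rose by 0.65 ± 0.07 from a mean signal under 6 in CON. The ASP arrays alone brought it past the signal filter. Dgat2, which completes triglyceride synthesis, and Thrsp, a lipogenic protein, rose by 0.32 ± 0.04 and 0.24 ± 0.06, and were named after their values were seen. In ASP vs ASP+CGP, 3 of the 21 passed as higher in ASP, Agpat2 (1.44 ± 0.06), Elovl3 (0.54 ± 0.07) and Dgat2 (0.36 ± 0.04), against 4.25% of all genes. In CGP vs CON and in ASP+CGP vs CON, 0 genes of these 3 lists passed in limma, with between 0 and 2 genes of a list at an unadjusted p under 0.05. Of all genes 0.628% and 1.75% passed, and 11.6% and 15.4% had an unadjusted p under 0.05.

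Marker genes of other tissues were also higher in the ASP pool, beside the synthesis genes. The counts below stand beside 2.92% of all genes upregulated in ASP vs CON. In a bulk sample, fewer cells of a type and less RNA per cell cannot be told apart. Of 8 measured markers of the adrenal cortex, a tissue that makes and takes up cholesterol, 8 were upregulated in ASP vs CON, led by Cyp11b1 (log2 fold change 6.04 ± 0.06) and Cyp21a1 (5.86 ± 0.08). Their summed level on the log2 scale was 9.85 to 9.95 on CON, 9.91 to 9.93 on CGP, 14.07 to 14.09 on ASP and 9.91 to 9.93 on ASP+CGP. Outside ASP, Nr5a1 and Fdx1 had the highest means of the 8, at 8.42 and 7.61 on CON. Hsd3b1 and Mc2r had a mean signal under 6 in the 3 other pools and none of the 8 markers did in ASP. Without the ASP arrays neither gene would have passed the signal filter of 6 on 3 or more arrays. Their calls therefore rest on the pool that also brought them into the test.

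Of 8 measured markers of white adipose tissue, a lipogenic tissue, 7 were upregulated in ASP vs CON, led by Car3 (4.36 ± 0.07) and Fabp4 (4.02 ± 0.08). Their summed level was 10.31 to 10.39 on CON, 10.34 to 10.45 on CGP, 12.66 to 12.72 on ASP and 10.33 to 10.40 on ASP+CGP, and Adipoq, Fabp4 and Lep had a mean under 6 in the 3 other pools. None of these 3 genes would have passed the signal filter without the ASP arrays. Brown adipose markers passed in 5 of 5, led by Ucp1 (2.58 ± 0.06) and Cox8b (1.84 ± 0.05), with a summed level of 9.25 to 9.37 on CON, 9.27 to 9.32 on CGP, 10.64 to 10.70 on ASP and 9.18 to 9.27 on ASP+CGP. Elovl3 is in this list too and was the brown adipose marker with a mean under 6 outside ASP. It too would not have passed the signal filter without the ASP arrays.

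Markers of the exocrine pancreas passed in 6 of 6, led by Ctrb1 (3.22 ± 0.07) and Cpa1 (2.62 ± 0.06), with a summed level of 9.15 to 9.41 on CON, 9.37 to 9.39 on CGP, 11.69 to 11.75 on ASP and 9.38 to 9.39 on ASP+CGP. Cpb1 and Zg16 had a mean under 6 in the 3 other pools. Neither would have passed the signal filter without the ASP arrays. Liver markers passed in 2 of 6, Alb (0.999 ± 0.09) and Ttr (0.74 ± 0.07), the latter also a product of the choroid plexus. The liver summed level was 12.01 to 12.20 on CON, 12.43 to 12.45 on CGP, 12.71 to 12.75 on ASP and 12.44 to 12.64 on ASP+CGP. This sum was mostly Ttr, with pool means of 11.8, 12.2, 12.5 and 12.3 in that order. Ttr also passed in CGP vs CON (0.42 ± 0.07, adjusted p = 0.0065 in limma) and in ASP+CGP vs CON (0.50 ± 0.07, adjusted p = 0.00098). Apoa1, Apoa2, Ahsg and Fgb did not pass in ASP vs CON. The part of these tissues in the levels of Dhcr7, Acly, Acacb, Fasn, Me1, Scd1 and Fads2 was not tested.

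Pituitary markers ranked the pools differently. Of all genes, 4.08% passed in either direction in ASP vs CON, 0.628% in CGP vs CON and 1.75% in ASP+CGP vs CON. The summed level of the pituitary markers was 14.14 to 14.21 on CON, 15.00 to 15.03 on CGP, 15.17 to 15.18 on ASP and 12.07 to 12.27 on ASP+CGP. At an adjusted p under 0.05 in limma, 8 of 8 were higher in ASP and 7 of 8 in CGP than in CON, while 6 were lower in ASP+CGP. The log2 fold change of all 8 was above 0 in ASP and in CGP and below 0 in ASP+CGP. Hypothalamic markers passed as lower than in CON in 5 of 7 genes in ASP, 3 in CGP and 4 in ASP+CGP, led in ASP by Avp (-0.50 ± 0.04) and Oxt (-0.33 ± 0.05). The log2 fold change of all 7 was below 0 in each of these 3 pools. Their summed level was 14.28 to 14.39 on CON, 14.09 to 14.13 on CGP, 14.04 to 14.07 on ASP and 14.03 to 14.08 on ASP+CGP.

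Among the brain cell types, markers of oligodendrocytes, the cells that make myelin, passed in 0 of 11 in ASP vs CON in limma, with 2 at an unadjusted p under 0.05. Their summed level was 14.91 to 14.99 on CON, 14.96 to 14.97 on CGP, 14.94 to 14.97 on ASP and 14.89 to 15.01 on ASP+CGP, so all 4 pools overlapped. Of all genes, 4.08% passed in ASP vs CON, 1.75% in ASP+CGP vs CON and 4.01% for the interaction, in either direction. In ASP vs ASP+CGP, 2.67% passed as lower in ASP. Single oligodendrocyte markers differed in these other comparisons. In ASP vs ASP+CGP, 2 of the 11 passed as lower in ASP, Ermn (-0.39 ± 0.06, adjusted p = 0.0019 in limma) and Ugt8a (-0.27 ± 0.05, adjusted p = 0.0064). Ermn also passed as higher in ASP+CGP than in CON (0.32 ± 0.06, adjusted p = 0.021 in limma), 1 of 11. The adjusted p was 0.049 in the limma fit of these 2 pools alone with the replicate block. The interaction of Ermn was 0.35 ± 0.09 (adjusted p = 0.048 in limma). The part of these cells in the levels of the synthesis genes was not tested. Astrocyte markers passed in 0 of 8, neuron markers in 0 of 6 and microglia markers in 0 of 6 in the same comparison, with 1, 0 and 0 genes at an unadjusted p under 0.05. The summed level of the 5 fatty acid synthesis genes was 12.55 to 12.64 on CON, 12.62 to 12.64 on CGP, 12.93 to 12.96 on ASP and 12.46 to 12.61 on ASP+CGP, where the ASP arrays stood apart. That of the 14 sterol synthesis genes was 13.66 to 13.67 on CON, 13.67 to 13.68 on CGP, 13.68 to 13.71 on ASP and 13.65 to 13.67 on ASP+CGP, where the CGP arrays also lay above the CON arrays and overlapped the ASP arrays.

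**Figure D4:**
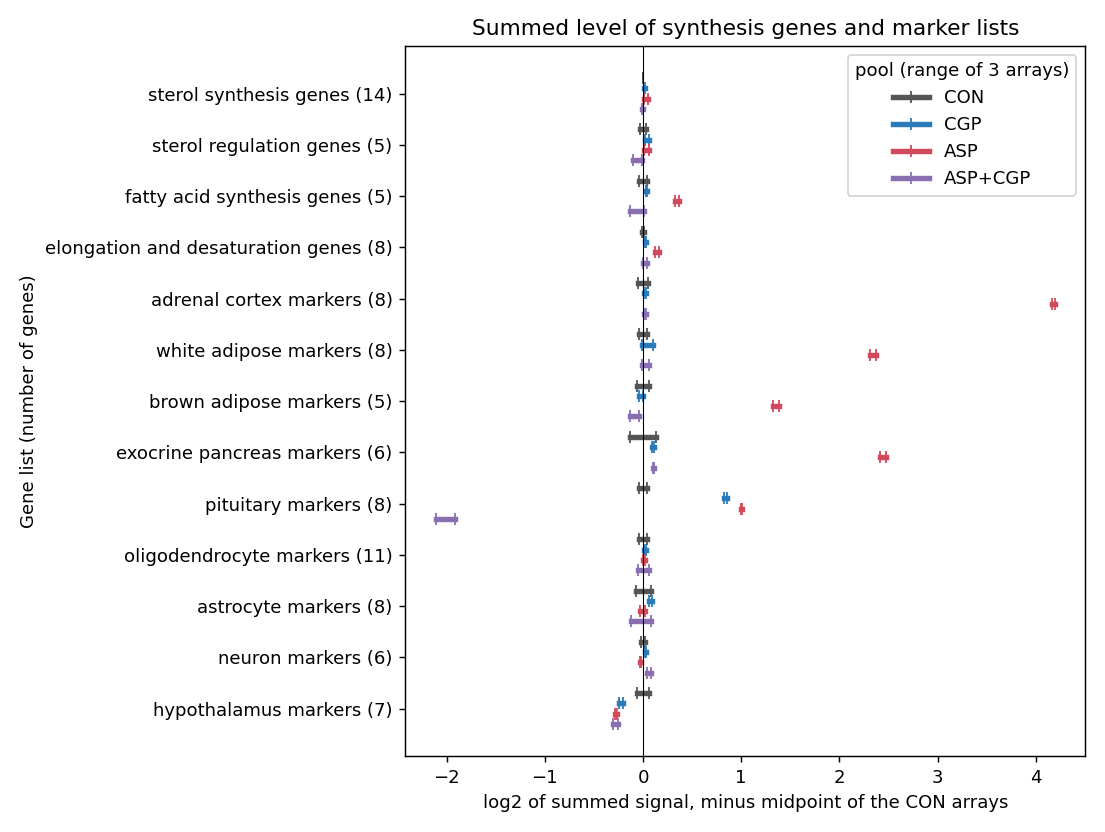
Bars span the lowest to the highest of the 3 arrays of a pool in the log2 of the summed signal of each gene list, relative to the midpoint of the CON arrays. The ASP pool is 4 or more log2 units up for adrenal cortex markers and more than 1 for adipose and pancreas markers, less than 1 up for fatty acid synthesis genes, and near the CON arrays for sterol synthesis genes.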

How the data were processed

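The deposited values were log2 signals per probe set, made by the authors with RMA (background correction, quantile normalization and median polish) in Partek Genomics Suite. Quantile normalization would remove a shift shared by most genes, and background in the signal lowers the fold changes of dim genes. Of 29149 probe sets, 19019 had exactly 1 gene symbol in the platform annotation, 1197 had several and 8933 had none, and 18947 of the former were found in RefSeq (GRCm38.p6). Of the single-symbol probe sets, 18810 reached 6 on 3 or more arrays and were kept, and the probe set with the highest mean represented a gene, leaving 17186 genes. Of the synthesis genes, 28 had 1 probe set and 4 had several. Arrays carry no read depth, and their number limits the precision.

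Groups and replicate numbers came from the sample labels. All 12 arrays were fitted with limma 3.58.1 under R 4.3.3 (lmFit, eBayes, a mean per group, 8 residual and 5.43 prior degrees of freedom), following the ANOVA with contrasts of the study, with Benjamini-Hochberg adjustment over all genes within each of 5 contrasts. A gene passed at an adjusted p under 0.05. DEGs also had a fold change over 1.4. Errors after ± are SEs from this fit. No permutation test was made per gene, since the smallest two-sided exact p for 3 against 3 arrays is 0.1. Summed levels are the log2 of summed linear signals. The steps were tested on simulated data. Tables and figures were made in Python 3.11.15 with numpy 2.4.6, pandas 2.3.3 and matplotlib 3.10.9.

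The genes, the pathway and marker lists and the tests were chosen with earlier results of these data known. Genes that passed in at least 1 contrast were to be named with all array values, the others by range and count. Of each neighbouring list up to 4 genes with the largest change past both limits were to be named, and of each marker list up to 2. Other synthesis genes are named for their role, or because their values stood out once seen. Deviations of arrays with the same replicate number correlated at 0.17, 0.256 and 0.541 between CON and ASP+CGP, so the numbers were taken to pair these pools, though the labels tie them to no shared batch. Between the other pools they correlated at -0.11 to 0.19, with no other pair of pools above 0.1 for all 3 numbers. Alternatives were other signal filters, the mean over the probe sets of a gene, further normalization, other variance models and adjustments, the replicate number as a block (for CON and ASP+CGP alone, added after seeing the data), and leaving out arrays.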

Additional observations from a re-analysis of the deposited data

Results flagged for a closer look

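The difference between mice with and without aspartame itself differed between mice without and with CGP 39551 in 7 synthesis genes, by the interaction term of limma at an adjusted p under 0.05. Of all genes 4.01% passed in either direction and 2.78% below 0. The log2 interaction was -0.65 for Dhcr7 and -0.78 for Me1, the genes with the highest fold changes in ASP vs CON. It was -0.49 for Acly, -0.56 for Acacb and -0.33 for Fasn of fatty acid synthesis, and -0.46 for Scd1 and -0.25 for Fads2 of the desaturases. Fasn lost this call in 12 of 22 alternatives and Fads2 in 8 of 22, with an adjusted p of up to 0.1 in limma for both. In each of these genes the 3 ASP arrays lay above the 9 others. Each pool was 1 RNA preparation, so an interaction of treatments and a difference of the ASP pool from the other pools cannot be told apart.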

How the results depend on the processing

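Under the alternatives, 188 of 190 recomputed counts of passing genes stayed within 1.5 times the count given above. The exceptions were in ASP+CGP vs CON, where the count of 0 became 1 without array 3 of CON and of ASP+CGP (Elovl6), and 1 without array 3 of CON alone (Idi1). The cause was not tested. Leaving out each array in turn gave 5 to 7 passing genes in ASP vs CON (2 to 3 with the fold limit), 0 in CGP vs CON, 0 to 1 in ASP+CGP vs CON (0 with the fold limit), 6 to 7 in ASP vs ASP+CGP (2 to 3) and 5 to 7 for the interaction (3 to 4). With the replicate number as a block the counts were 7, 0, 0, 7 and 7 in that order, and in the paired fit of CON and ASP+CGP alone the count was 0 in ASP+CGP vs CON. The block changed no call of a synthesis gene. In the paired fit, the hypothalamic markers that passed as lower in ASP+CGP than in CON went from 4 to 3. That fit also left out the CGP and ASP arrays, so the change cannot be credited to the block alone. Of 406 recomputed fold changes of passing genes, 372 kept direction and call, 34 lost the call and 0 reversed. All 34 were of Fasn and Fads2. The adjusted p in ASP vs CON ranged over the alternatives from 0.015 to 0.14 for Fasn and from 0.0024 to 0.058 for Fads2, while it stayed under 0.05 for Dhcr7, Acly, Acacb, Me1 and Scd1. Scd1 crossed 1.4-fold in ASP vs CON after a further quantile normalization and without ASP array 2 or 3.

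The arrays are repeats of 1 pool per group, so nothing here measures the spread between mice. Differences under about 1.4-fold in the genes that did not pass remain within their 95% intervals, and Idi1 has the widest. Its interval reached a log2 value of 0.52 in ASP+CGP vs CON, -0.57 in ASP vs ASP+CGP and 0.79 for the interaction, each beyond 1.4-fold.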

Other observations

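In CGP vs CON, where none of the synthesis genes passed in limma, 27 of the 32 had a log2 fold change above 0, against 9987 of all 17186 genes. The genes below 0 were Idi1, Fdps, Cyp51 and Ebp of sterol synthesis and Elovl5. The CGP pool held the highest mean of the 4 pools in 12 of the 32 genes and the ASP pool in 13, while the ASP+CGP pool held the lowest mean in 15. These counts are a description with no test. The ranks of pool means were not counted over all genes, so they cannot be called particular to this set.

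The spread within a pool also differed. The median SD over the 3 arrays of a pool over the 32 genes was 0.0475 for CON arrays, 0.0248 for CGP, 0.0338 for ASP and 0.0614 for ASP+CGP, and 0.0676, 0.0441, 0.0484 and 0.0705 over all genes. The ASP+CGP pool had the widest spread in 12 of the 32 genes, among them Acly and Fasn, and CON in 13, among them Idi1 and Srebf1.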
